A study of Mus musculus with 2 samples.

Results

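The 10 genes described here encode heat shock proteins and chaperones, chosen by symbol: Hspa1a, Hspa1b, Dnajb1, Hsph1, Hsp90aa1, Hspa8, Hspd1, Hspa5, Hspb1 and Cryab. They are 10 of the 31253 features counted, and each symbol had 1 row. Infarcted mouse brain was taken on day 3 after the middle cerebral artery had been closed for a time and reopened (tMCAO, a stroke model), digested with collagenase at 37 °C and captured on the BD Rhapsody single-cell system. There was 1 library from mice with a conditional knockout of Hilpda (cKO) and 1 from flox mice, which the design text calls WT. Hilpda encodes a lipid droplet protein. The sources used here do not give the Cre driver, the deleted exons, the sex and age of the mice or how many animals went into a library. With 1 library per group, library and group cannot be told apart, no test was made, and the intervals below describe counting error alone.

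Chaperones bind unfolded or partly folded proteins and help them to fold, to be refolded after stress or to be passed on for degradation. Heat, ischaemia and other stresses that unfold proteins release heat shock transcription factors, which bind heat shock elements in promoters and switch on the inducible members, while constitutive members are made in unstressed cells. Unfolded protein in the endoplasmic reticulum instead acts through endoplasmic reticulum stress elements, of which the Hspa5 promoter holds well-known examples. Warm enzymatic digestion of tissue is itself known to induce heat shock and immediate early genes.

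Hspa1a and Hspa1b encode the stress-inducible cytosolic Hsp70 and lie side by side on the minus strand at chr17:34969190-34972156 and chr17:34956436-34959238 (GENCODE vM21, GRCm38). RefSeq promoter entries (GRCm38.p6, 250 bases before to 50 after the annotated start) were found for 7 of the 10 members. The following 4 are shown because the ratios of Hspa1a and Hspa1b between the libraries had like signs in endothelial and oligodendrocyte-like cells, and because Hspb1 was led by vascular classes and Hspa5 by myeloid classes. Sequences run 5′ to 3′ on the gene's strand. Capitals mark the outward heat shock element pair GAANNTTC in the first 3, and CCAAT on either strand and the endoplasmic reticulum stress element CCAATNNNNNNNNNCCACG in Hspa5.

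Hspa1a, chr17:34972107-34972406, minus strand: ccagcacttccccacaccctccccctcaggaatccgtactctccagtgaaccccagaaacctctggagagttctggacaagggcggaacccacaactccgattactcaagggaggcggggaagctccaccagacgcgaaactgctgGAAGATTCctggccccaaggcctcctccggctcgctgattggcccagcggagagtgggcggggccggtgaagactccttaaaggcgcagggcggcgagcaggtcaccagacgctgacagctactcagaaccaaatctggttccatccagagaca
Hspa1b, chr17:34959189-34959488, minus strand: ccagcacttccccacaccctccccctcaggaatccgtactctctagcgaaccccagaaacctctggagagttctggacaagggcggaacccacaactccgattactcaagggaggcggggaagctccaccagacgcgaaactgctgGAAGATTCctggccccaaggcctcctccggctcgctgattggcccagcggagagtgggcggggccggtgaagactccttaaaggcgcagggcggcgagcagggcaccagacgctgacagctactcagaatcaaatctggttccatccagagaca
Hspb1, chr5:135887669-135887968, plus strand: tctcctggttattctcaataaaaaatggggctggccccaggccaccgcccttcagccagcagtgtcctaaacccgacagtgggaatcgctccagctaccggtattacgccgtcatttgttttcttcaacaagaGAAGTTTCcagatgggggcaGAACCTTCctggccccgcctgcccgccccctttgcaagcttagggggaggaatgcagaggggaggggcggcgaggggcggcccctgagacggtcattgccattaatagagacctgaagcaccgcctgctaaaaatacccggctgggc
Hspa5, chr2:34771840-34772139, plus strand: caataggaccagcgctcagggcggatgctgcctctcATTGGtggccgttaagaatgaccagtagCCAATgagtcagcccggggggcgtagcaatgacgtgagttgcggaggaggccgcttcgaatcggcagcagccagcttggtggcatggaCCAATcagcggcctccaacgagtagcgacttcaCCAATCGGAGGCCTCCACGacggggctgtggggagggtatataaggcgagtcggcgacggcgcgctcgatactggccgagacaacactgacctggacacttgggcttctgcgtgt

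The Hspa1a and Hspa1b promoters had the same base at 296 of 300 positions (98.7%), and each held 1 GAANNTTC at -104 from the start. Hspb1 held 2 copies of it. Searched on both strands, GAANNTTC occurred in 7.86% of 32851 promoters of the same length, and its inward counterpart TTCNNGAA, which overlaps it wherever 3 units stand in a row, in 8.52%. The 3-unit form GAANNTTCNNGAA occurred in 0.603% of promoters, among them those of Hsph1, the Hsp110 nucleotide exchange factor, and, in 1 of its 2 entries, Hspd1, the mitochondrial Hsp60. The Hspa5 window held CCAAT at 4 places, against 37.4% of promoters with at least 1, and 1 full endoplasmic reticulum stress element at -65, a pattern found in 0.119%. Neither entry for Dnajb1 held a heat shock element of these forms. These matches describe letters in the window and show no binding.

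The cKO library held 7382 barcodes and 70665440 UMIs, of which 6983 cells were kept, with a median of 8747 UMIs. The flox library held 8593 barcodes and 67864602 UMIs, of which 8061 cells were kept, with a median of 6993 UMIs. The libraries shared 51 cell barcodes. Cells fell into 29 clusters, and 27 of these were named from markers as 16 classes, none of which used the 10 genes. Comparisons were limited to 8 classes that had 100 or more cells per library, and levels are shown for 15 that had 30 or more. Every marker of a class was detected in both libraries in each of these 15 classes, and no cluster was named from markers of neurons or erythrocytes. Hilpda, the targeted gene, stood at 276 CPM in cKO and 509 CPM in flox monocyte or macrophage-like cells, but at 222 CPM in cKO and 103 CPM in flox microglia-like cells. Whether the counted 3′ end lies in the deleted part is not known, so the level does not check the label.

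The level of a gene is its UMIs in all cells of a class from 1 library, as counts per 1000000 UMIs of these cells (CPM), with an exact 95% Poisson interval. They compare classes for 1 gene and were not compared between genes. The order of the 15 classes was alike in the libraries, with Spearman correlations between cKO and flox of 0.70 for Hspa1b to 0.97 for Hsp90aa1. These correlations describe the classes of the same 2 libraries.

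**Figure D1:**
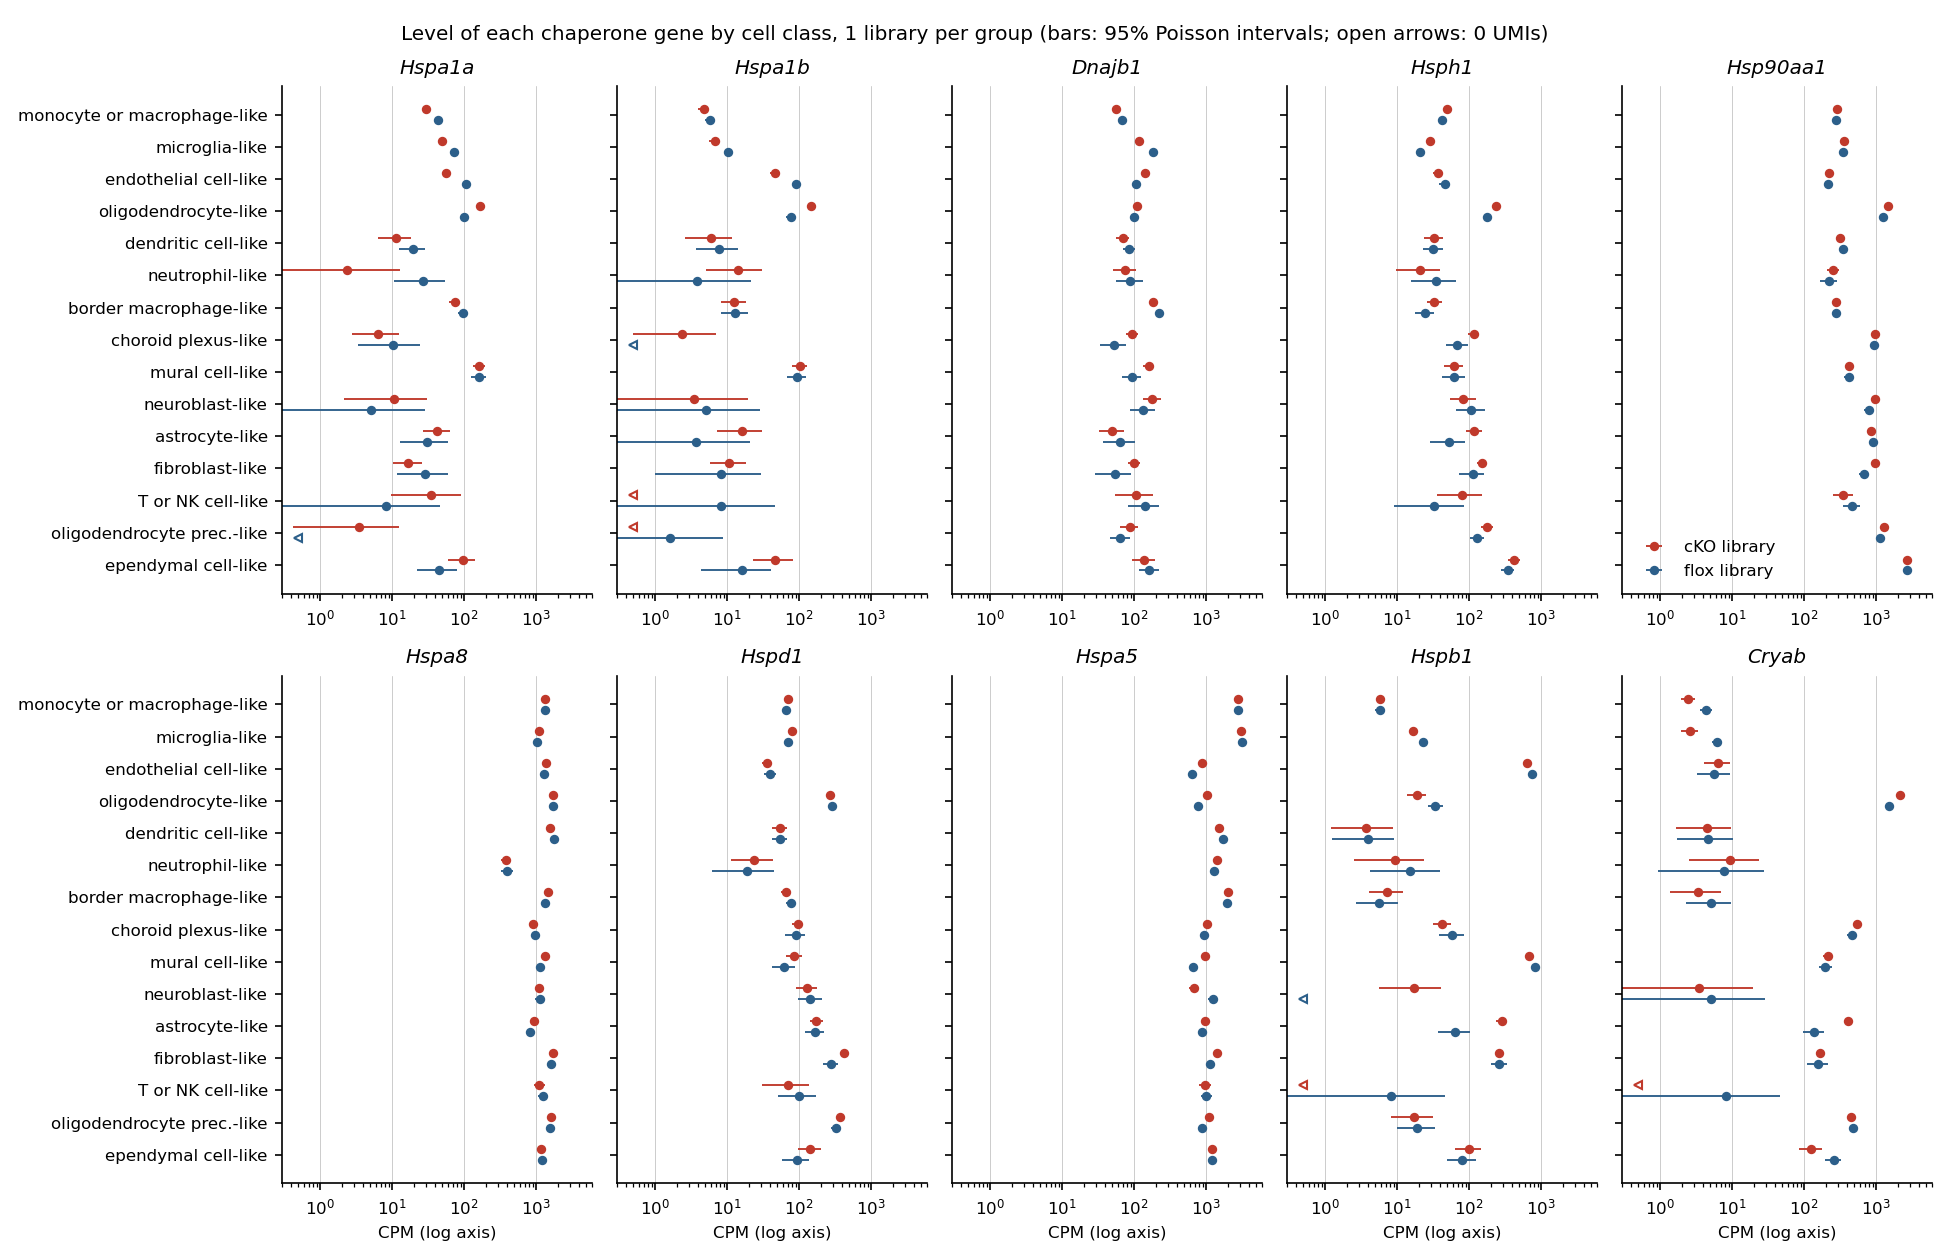
Level of each of the 10 genes in 15 cell classes, as CPM on a log axis, with the cKO library in red above the flox library in blue. Points are sums over all cells of a class in 1 library, bars are exact 95% Poisson intervals and open arrows mark 0 UMIs. Hspa5 is highest in microglia-like cells, Hspb1 in mural and endothelial cell-like cells and Cryab in oligodendrocyte-like cells, in both libraries.

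The inducible Hsp70 genes were high in oligodendrocyte and mural cell-like cells, and in flox also in endothelial cell-like cells. Among immune classes Hspa1a was high in border-associated macrophage-like cells, at 74.2 CPM (62.9 to 87.0) in cKO and 96.8 CPM (82.8 to 112) in flox, with intervals that overlap those of endothelial cell-like cells in both libraries. Hspa1a reached 169 CPM (interval 153 to 187) in cKO and 101 CPM (87.9 to 115) in flox oligodendrocyte-like cells. In mural cell-like cells, the pericytes and smooth muscle of vessels, it stood at 162 CPM in cKO and 160.1 CPM in flox. Monocyte or macrophage-like cells held 29.5 CPM in cKO and 43.7 CPM in flox, and dendritic cell-like cells 11.3 CPM in cKO and 19.5 CPM in flox. Oligodendrocyte precursor-like cells, although related to the class with the highest cKO level, held 2 Hspa1a UMIs in cKO and 0 in flox, and 0 Hspa1b UMIs in cKO and 1 in flox, among 576585 UMIs in cKO and 624339 UMIs in flox. Of 14 pairs of neighbouring classes in the order for Hspa1a, 13 in cKO and 12 in flox had overlapping intervals, so the order is fixed only between its ends.

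Hspa1b was led by the same 3 classes in both libraries. It stood at 149 CPM in cKO and 78.4 CPM in flox oligodendrocyte-like cells, at 103 CPM in cKO and 92.4 CPM in flox mural cell-like cells, and at 46.5 CPM in cKO and 90.9 CPM in flox endothelial cell-like cells. Microglia-like cells held 6.72 CPM of Hspa1b in cKO and 10.3 CPM in flox, far under the leading classes. The last 500 nt of Hspa1a and Hspa1b transcripts shared no 50-base stretch with each other or with another gene, so 3′ reads can separate these neighbours.

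Between the libraries, both Hsp70 genes were lower in cKO endothelial cell-like cells and higher in cKO oligodendrocyte-like cells. In endothelial cell-like cells Hspa1a stood at 56.0 CPM in cKO and 106 CPM in flox, a log2 ratio of cKO over flox of -0.92 (exact conditional 95% interval -1.18 to -0.66). The ratio of Hspa1b there was -0.97 (-1.25 to -0.69). Both endothelial clusters went the same way for Hspa1a, with 51.7 CPM in cKO and 91.0 CPM in flox in the cluster led by Tmem252 and Igfbp7, and 101 CPM in cKO and 145 CPM in flox in the cluster led by Spock2 and Slco1a4. These clusters were filled unequally, the first with 453 cKO and 344 flox cells and the second with 83 cKO and 219 flox cells. The 8 endothelial markers summed to 12389 CPM in cKO and 16072 CPM in flox, and Cldn5, a tight junction gene, alone stood at 592 CPM in cKO and 3287 CPM in flox. When each cell was instead gated by its own markers the Hspa1a ratio was 0.01 and the Hspa1b ratio -0.34. The part of the endothelial makeup in the difference was not tested beyond this.

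In oligodendrocyte-like cells the log2 ratio was 0.75 (0.50 to 0.99) for Hspa1a and 0.93 (0.66 to 1.20) for Hspa1b. A few cells carried much of the cKO signal. A single cKO cell held 99 of the 350 Hspa1b UMIs (28.3%), and 5 cells held 180 of the 397 Hspa1a UMIs (45.3%), while in flox 5 cells held 79 of 216 Hspa1a UMIs (36.6%). Without the highest cell of each library the Hspa1b ratio was 0.57. With cells thinned to 1000 UMIs, 13.7% of cKO cells (9.97 to 18.2%, n = 292 cells) and 9.09% of flox cells (5.97 to 13.1%, n = 275 cells) had an Hspa1b UMI, and these Clopper-Pearson intervals overlap. With cells thinned to 3000 UMIs the shares lay the other way round, at 12.2% of cKO cells (8.21 to 17.3%) and 13.2% of flox cells (9.01 to 18.4%). With equal weight per cell the ratios were 0.39 for Hspa1a and 0.47 for Hspa1b, and with cells gated one by one 2.15 for Hspa1a and 1.75 for Hspa1b. The oligodendrocyte markers summed to 27619 CPM in cKO and 26645 CPM in flox.

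In the phagocyte classes Hspa1a was lower in cKO. Microglia-like cells held 49.2 CPM in cKO and 72.0 CPM in flox (log2 ratio -0.55, -0.66 to -0.43), and monocyte or macrophage-like cells had a ratio of -0.57 (-0.70 to -0.44). All 5 macrophage clusters and all 4 microglia clusters with at least 30 cells in each library lay below 0, from -1.07 to -0.10 and from -0.55 to -0.30. A further microglia cluster led by Ifit3, with 24 cKO and 54 flox cells, had 0.45 (-0.36 to 1.25). In mural cell-like cells the Hspa1a ratio was 0.02 (-0.40 to 0.45). Neutrophil-like cells held 1 Hspa1a UMI in cKO and 7 in flox, a ratio of -3.52 with an interval of -9.01 to -0.56, at a median depth of 1299 UMIs in cKO and 1067 UMIs in flox.

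Dnajb1 encodes an Hsp40 cochaperone that delivers unfolded protein to Hsp70 and is itself heat-inducible (chr8:83608193-83612653). Border-associated macrophage-like cells, which line vessels and meninges, had the highest level in both libraries, 183 CPM in cKO and 224 CPM in flox, and the lead is not fixed. In cKO its interval overlapped that of neuroblast-like cells, at 178 CPM (133 to 234), and of mural cell-like cells, and all 14 neighbouring pairs of classes overlapped. Monocyte or macrophage-like cells held 56.8 CPM in cKO and 67.7 CPM in flox. Microglia-like cells stood at 119 CPM (114 to 124) in cKO and 181 CPM (175 to 187) in flox, a log2 ratio of -0.60 (-0.68 to -0.53). The direction differed in vascular cells. Mural cell-like cells held 159.8 CPM in cKO and 94.4 CPM in flox (0.76, 0.26 to 1.28), and endothelial cell-like cells 141 CPM in cKO and 108 CPM in flox (0.39, 0.19 to 0.60), where both Hsp70 genes were lower in cKO.

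Within microglia, the clusters with the most Dnajb1 and the most Hspa5 lay at opposite ends. Dnajb1 was highest in the cluster led by Siglech and P2ry12, markers of homeostatic microglia, at 308 CPM in cKO and 403 CPM in flox. The other 3 clusters with at least 30 cells per library held 78.8 to 177 CPM in cKO and 114 to 191 CPM in flox, lowest in the cluster led by Mmp12, Cd5l and Lpl. Hspa5 was highest in that Mmp12-led cluster, at 3609.8 CPM in cKO and 3991 CPM in flox, and lowest in the Siglech-led cluster, at 2056 CPM in cKO and 2159 CPM in flox. Both libraries showed this at the ends, while between the 2 middle clusters the Gpr84-led one was above the Top2a-led one for both genes. The Siglech-led cluster supplied 289 of 1455 microglia-like cells in cKO and 760 of 2185 in flox, and the Mmp12-led cluster 535 in cKO and 572 in flox. Within clusters the Dnajb1 ratios ran from -0.53 to -0.11, all below 0 and all nearer to 0 than the class ratio, except in the Ifit3-led cluster of 24 cKO and 54 flox cells (0.17, -0.34 to 0.67).

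**Figure D2:**
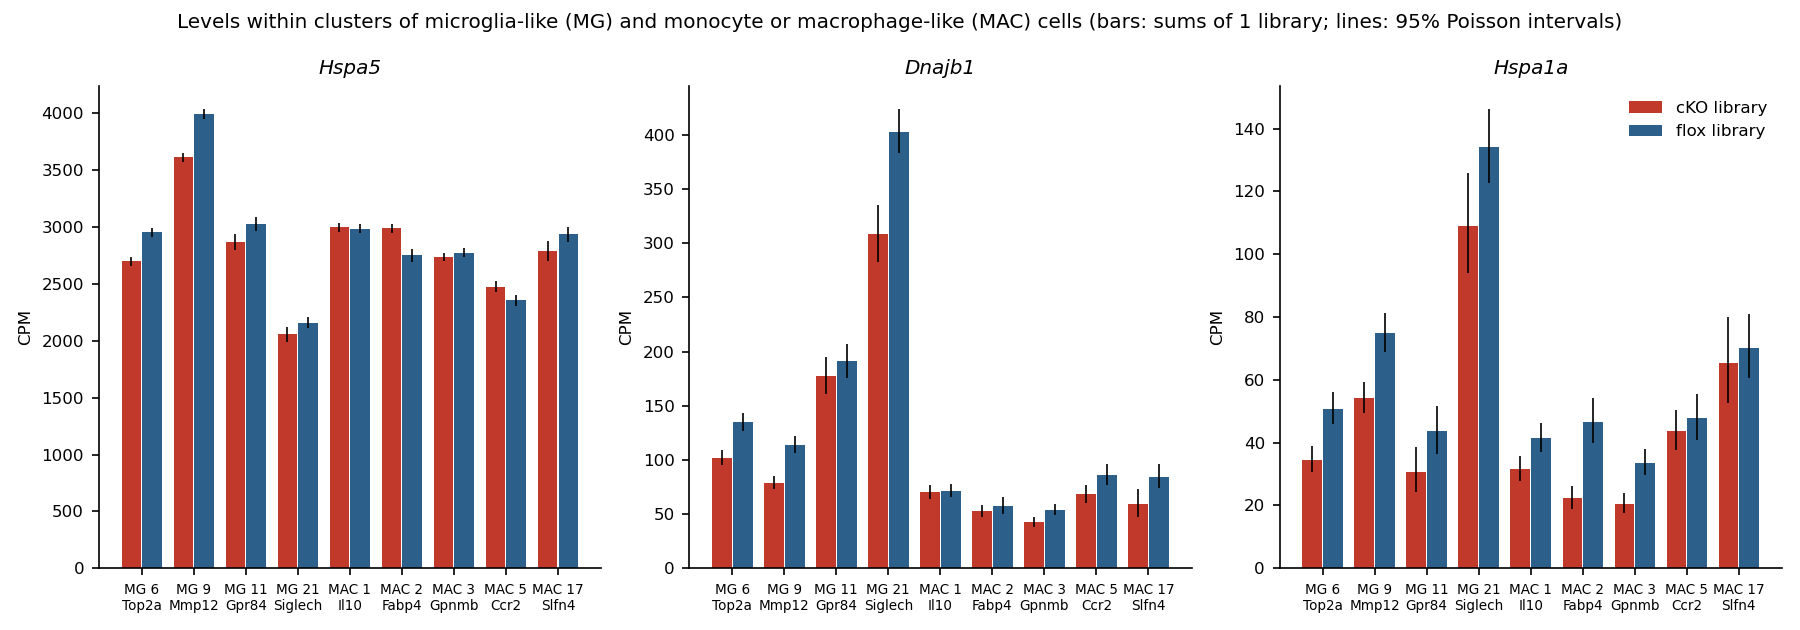
Hspa5, Dnajb1 and Hspa1a in clusters of microglia-like (MG) and monocyte or macrophage-like (MAC) cells with at least 30 cells in each library, in CPM, each labelled with its leading gene. Bars are sums of 1 library, cKO in red left of flox in blue, and lines are exact 95% Poisson intervals. Dnajb1 and Hspa1a peak in the Siglech-led cluster and Hspa5 in the Mmp12-led cluster in both libraries.

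Hsph1, an Hsp110 protein that recharges Hsp70 (chr5:149614287-149636376), and Hsp90aa1, the inducible cytosolic Hsp90 (chr12:110690605-110702728), shared their 3 leading classes. Ependymal cell-like cells, the ciliated lining of the ventricles, led with 422 CPM of Hsph1 in cKO and 344 CPM in flox, and with 2729 CPM of Hsp90aa1 in cKO and 2735 CPM in flox. Only 30 cKO and 40 flox cells made up that class. Oligodendrocyte-like cells followed with 236 CPM of Hsph1 in cKO and 176 CPM in flox, and 1482 CPM of Hsp90aa1 in cKO and 1238 CPM in flox. Endothelial cell-like cells had the lowest Hsp90aa1 level, 224 CPM in cKO and 216 CPM in flox, 12.2-fold under the highest class in cKO and 12.7-fold in flox.

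The Hsp90aa1 ratio in oligodendrocyte-like cells was 0.26 (0.19 to 0.33), and in the other 7 compared classes it lay between -0.14 and 0.19. Hsph1 was higher in cKO in microglia-like cells, at 29.1 CPM in cKO and 20.9 CPM in flox (0.48, 0.30 to 0.65), a class in which Hspa1a and Dnajb1 were lower. The microglia clusters were divided, with 2 above 0 and 2 below in a range of -0.15 to 0.57. It was higher in all 5 macrophage clusters, by 0.10 to 0.48 on the log2 scale. In oligodendrocyte-like cells its ratio was 0.42 (0.23 to 0.61).

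Hspa8, the constitutive Hsc70 (chr9:40800984-40810087), varied little over most classes. Its levels ran from 897 to 1741 CPM in cKO and from 837 to 1758 CPM in flox over 14 classes, with neutrophil-like cells apart at 379 CPM in cKO and 398 CPM in flox. Among the compared classes its ratios lay between -0.15 in dendritic cell-like cells and 0.24 in mural cell-like cells. Of the 50-base stretches in the last 500 nt of its transcript, 81.6% also occur in Gm15459, 1 of 11 genes sharing such stretches. No counted feature had the symbol Gm15459, so no UMIs stand under it here. How reads that match more than 1 gene were treated is not known and may affect the Hspa8 level.

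Hspd1, which forms the Hsp60 chaperonin of the mitochondrial matrix (chr1:55077835-55088243), was highest in fibroblast and oligodendrocyte lineage classes. Fibroblast-like cells held 418 CPM in cKO and 278 CPM in flox, oligodendrocyte precursor-like cells 376 CPM in cKO and 324 CPM in flox, and oligodendrocyte-like cells 273 CPM in cKO and 291 CPM in flox. Among fibroblast-like cells, 5 of 34 flox cells held 52 of 67 Hspd1 UMIs (77.6%), and 5 of 101 cKO cells held 141 of 501 (28.1%). Neutrophil-like cells were lowest with 10 UMIs in cKO and 5 in flox. Its ratio was 0.18 (0.08 to 0.28) in microglia-like cells and -0.10 (-0.26 to 0.07) in oligodendrocyte-like cells.

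Hspa5 encodes BiP, the Hsp70 of the endoplasmic reticulum (chr2:34771970-34777547), and its order of classes had the myeloid classes first. The 5 highest classes were the same and in the same order in both libraries. Microglia-like cells held 3049 CPM (3025 to 3073) in cKO and 3175 CPM (3152 to 3199) in flox. Monocyte or macrophage-like cells followed with 2828 CPM in cKO and 2793 CPM in flox, border-associated macrophage-like cells with 2037 CPM in cKO and 1972 CPM in flox, and dendritic cell-like cells with 1509 CPM in cKO and 1698 CPM in flox. Neutrophil-like cells, lowest for Hspa8, came next for Hspa5 with 1437 CPM in cKO and 1278 CPM in flox. Endothelial cell-like cells stood at 881 CPM in cKO and 637 CPM in flox, near the bottom of the order.

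In the 2 largest of them Hspa5 was nearly level between the libraries, with log2 ratios of -0.06 (-0.07 to -0.04) in microglia-like and 0.02 (0.00 to 0.03) in monocyte or macrophage-like cells. It was higher in cKO in the 3 compared non-immune classes. The ratio was 0.47 (0.38 to 0.55) in endothelial cell-like cells, 0.44 (0.35 to 0.53) in oligodendrocyte-like cells and 0.53 (0.34 to 0.73) in mural cell-like cells. In mural cell-like cells the 10 microglia markers summed to 9060.5 CPM in cKO and 6921 CPM in flox, and 10 of 10 were higher in cKO. Of these 10, 8 in cKO and 5 in flox reached 20 CPM there. They summed to 10852 CPM in cKO and 8195 CPM in flox endothelial cell-like cells. There 1 of 10 was higher in cKO, so the higher cKO sum came from 1 marker and does not stand for the list. Only 4 of the 10 in cKO and 6 in flox reached 20 CPM in that class. In oligodendrocyte-like cells they summed to 699 CPM in cKO and 727 CPM in flox. The list includes Sparc, and the sums were not split by marker, so they are not read as microglial RNA in these classes. The part of these markers in the Hspa5 differences was not tested. With at most 10% mitochondrial UMIs the mural ratio was 0.25, with cells gated one by one it was 0.16, and with doublets kept the endothelial ratio was 0.22. The endothelial difference stood mostly in the Tmem252-led cluster, at 901 CPM in cKO and 648 CPM in flox. In the Slco1a4-expressing cluster Hspa5 stood at 668 CPM in cKO and 609 CPM in flox, a ratio of 0.13 (-0.10 to 0.37).

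The small heat shock proteins, which hold unfolded protein without using ATP, differed sharply between classes. Hspb1, Hsp27 in human (chr5:135887919-135889563), was led by mural cell-like cells with 689 CPM in cKO and 825 CPM in flox and endothelial cell-like cells with 642 CPM in cKO and 741 CPM in flox. Monocyte or macrophage-like cells held 5.90 CPM in cKO and 5.88 CPM in flox, which is 170 UMIs in cKO and 151 UMIs in flox. After thinning to 1000 UMIs, 44.7% of cKO endothelial cell-like cells (40.1 to 49.4%, n = 456 cells) and 48.4% of flox ones (44.0 to 52.9%, n = 506 cells) had an Hspb1 UMI, against 0.412% of cKO and 0.626% of flox monocyte or macrophage-like cells. Unthinned, the endothelial shares were 79.7% at a median of 5640 UMIs in cKO and 80.1% at 3938 UMIs in flox.

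Microglia-like cells lay between, with 16.8 CPM of Hspb1 in cKO and 23.1 CPM in flox, and 1.39% of cKO cells (0.851 to 2.14%) and 1.57% of flox cells (1.09 to 2.19%) with a UMI after thinning. The Hspb1 ratio was -0.21 (-0.29 to -0.12) in endothelial and -0.26 (-0.45 to -0.07) in mural cell-like cells. Subtracting the median ratio of genes of like 3′ GC content turned these to 0.34 and 0.14. The last 500 nt of Hspb1 are 57.2% GC, against a median of 44.4% over all genes, so no direction is given. Of its 50-base stretches there, 16% also occur in Hsp25-ps1, a symbol that no counted feature had.

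Cryab, the crystallin that serves as a small heat shock protein outside the lens (chr9:50751325-50756636), was highest in oligodendrocyte-like cells, at 2173 CPM (2113 to 2233) in cKO and 1539 CPM (1487 to 1593) in flox. Choroid plexus epithelial cell-like cells held 549.6 CPM in cKO and 461 CPM in flox, oligodendrocyte precursor-like cells 453 CPM in cKO and 481 CPM in flox, and mural cell-like cells 213 CPM in cKO and 199 CPM in flox. After thinning to 1000 UMIs, 77.1% of cKO (71.8 to 81.8%) and 71.6% of flox oligodendrocyte-like cells (65.9 to 76.9%) had a Cryab UMI, against 0.262% of cKO and 0.418% of flox monocyte or macrophage-like cells. Unthinned, the oligodendrocyte shares were 86.1% in cKO and 85.9% in flox. Within precursor-like cells 5 cells held 188 of 261 Cryab UMIs in cKO and 238 of 300 in flox.

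The Cryab ratio in oligodendrocyte-like cells was 0.50 (0.43 to 0.56). It came from the main cluster, led by Gpd1 and Tubb4a, with 2194 CPM in cKO and 1484 CPM in flox. The smaller cluster, with Mal among its leading genes, held 2009 CPM in cKO and 1983 CPM in flox. In microglia-like cells the level was 2.62 CPM in cKO and 6.26 CPM in flox (-1.26, -1.73 to -0.80), and in monocyte or macrophage-like cells 2.46 CPM in cKO and 4.40 CPM in flox (-0.84, -1.29 to -0.40). These levels in immune cells lay far under those in oligodendrocyte-like cells. The part of free RNA in them was not tested, so they are not read as expression, nor their ratios as differences.

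Over the 8 compared classes there were 80 pairs of a member and a class. A difference counted as large when its interval excluded equal levels, it reached 2-fold and the higher of the libraries had 30 UMIs and 100 CPM or more. Of the 80 pairs, 40 had enough UMIs and CPM, and of these 0 were higher and 0 were lower in cKO. The same rule over all genes and classes called 0.605% of 15037 gene and class pairs higher in cKO and 3.84% lower. Irrespective of size, the interval lay above equal levels in 18 of the 40 pairs and below in 8, beside 29% above and 22.9% below over the 15037 pairs. In oligodendrocyte-like cells 8 of the 10 members had a ratio above 0 and their median was 0.34, beside a median of -0.02 and 51.7% below 0 over 11427 genes. In microglia-like cells 6 of 10 lay below 0 and their median was -0.26, beside -0.04 and 55% below 0 over 12916 genes. These 6 include Cryab at -1.26, which is not read as a difference, and Hspb1 at -0.46, which was 0.02 after GC correction. In dendritic cell-like cells 9 of 10 lay below 0 at a median of -0.14, beside -0.06 and 55.7% below 0 over 9232 genes. Of these 9, Hspb1 had 5 UMIs in each library and Cryab 6 in each. In mural cell-like cells 8 of 10 lay above 0 at a median of 0.12, beside 0.00 and 50.2% below 0 over 9240 genes. The members' median was 0.01 in monocyte or macrophage-like cells, beside 0.01 over all genes. It was -0.01 in border-associated macrophage-like cells, beside -0.02, and -0.04 in endothelial cell-like cells, beside -0.12. In neutrophil-like cells it was 0.05, beside 0.03.

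**Figure D3:**
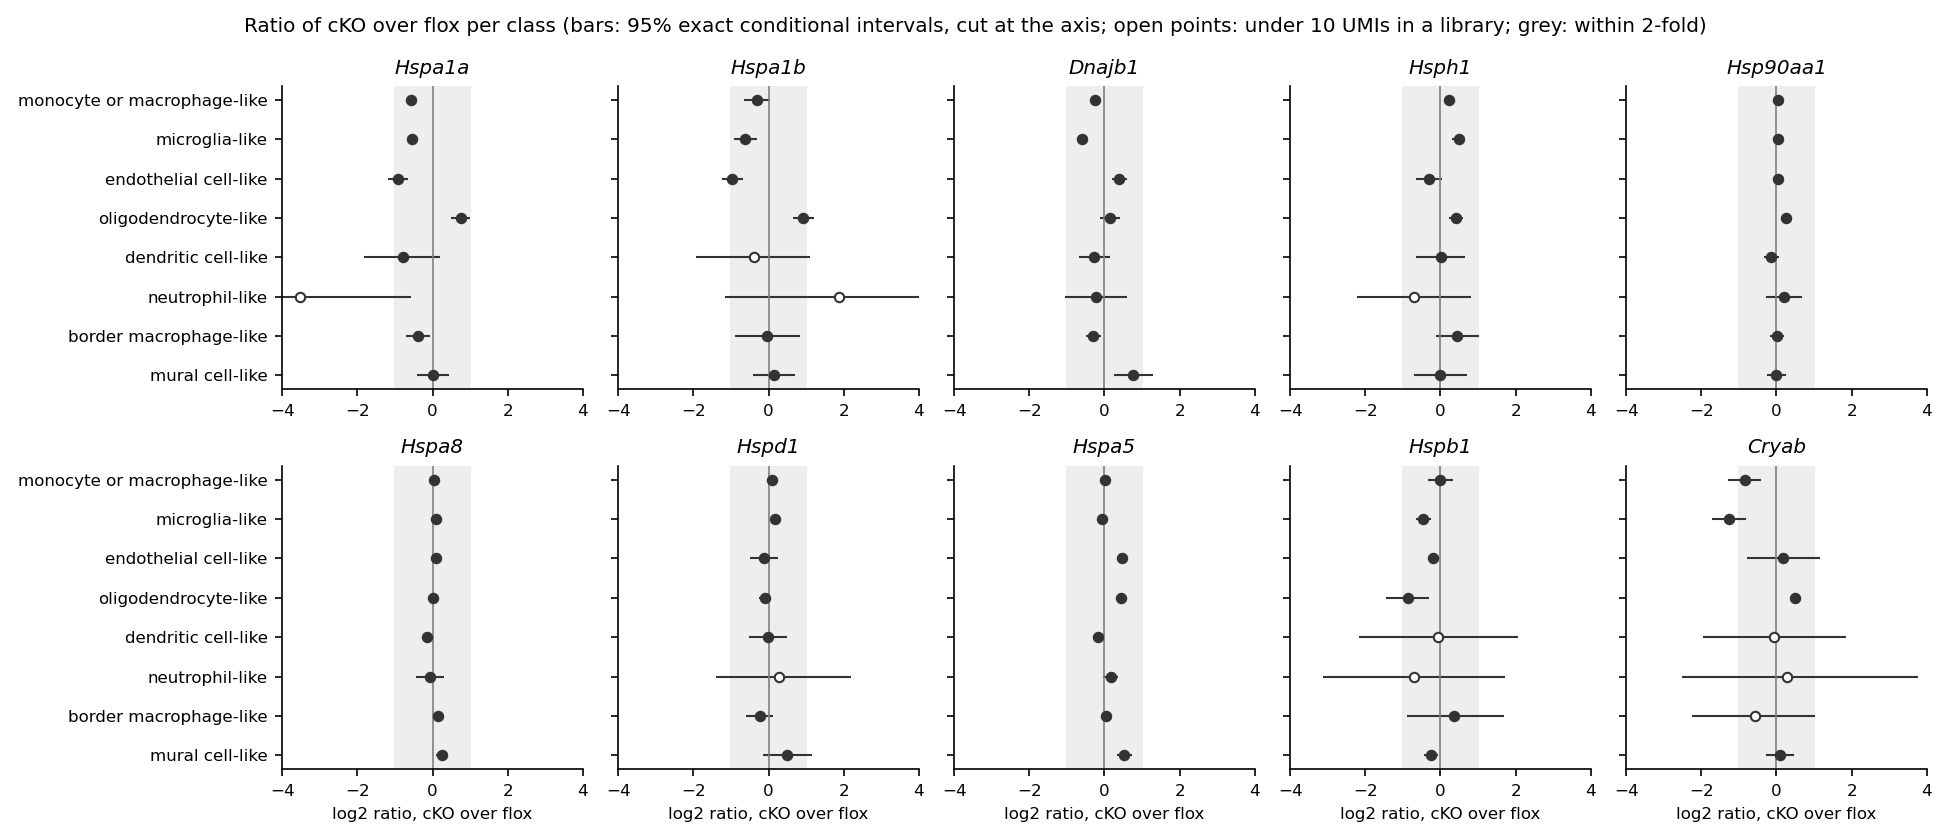
Log2 ratio of cKO over flox for each of the 10 genes in the 8 compared classes. Bars are exact conditional 95% intervals that cover counting error only, open points have under 10 UMIs in a library and the grey band marks a ratio within 2-fold. Hspa1a and Hspa1b lie to the right of 0 in oligodendrocyte-like cells and to the left in endothelial cell-like cells, and Hspa8 lies near 0 throughout.

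Classes with under 100 cells in a library were left out of these counts. The share of all genes that passed the rule for large differences was not counted in them. The differences below were singled out after their values were seen and are not read as particular to the members. Astrocyte-like cells differed in both small heat shock proteins. With 90 cKO and 46 flox cells, they held 284 CPM of Hspb1 in cKO and 64.1 CPM in flox (log2 ratio 2.14, 1.42 to 2.96), and 406 CPM of Cryab in cKO and 139.6 CPM in flox (1.54, 1.03 to 2.08). Their Hsph1 level was 119 CPM in cKO and 52.8 CPM in flox (1.17, 0.32 to 2.12). The 5 highest cKO cells held 55% of the class's Hspb1 UMIs and 52.4% of its Cryab UMIs. Astrocyte markers summed to 34105 CPM in cKO and 25308 CPM in flox, and the part of this in the differences was not tested. Ependymal cell-like cells went the other way for Cryab, with 125 CPM in cKO and 259 CPM in flox (-1.05, -1.72 to -0.40). In these 30 cKO and 40 flox cells other markers moved too, with endothelial markers summing to 25.1 CPM in cKO and 748 CPM in flox, monocyte or macrophage markers to 798 CPM in cKO and 2265 CPM in flox, and mural markers to 802 CPM in cKO and 1145 CPM in flox. Their part in the Cryab difference was not tested. Neuroblast-like cells held 675 CPM of Hspa5 in cKO and 1234 CPM in flox, but 1 cell carried 38.9% of these UMIs in cKO and 42.9% in flox.

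The partners of the 10 genes were taken from lists of the same pathways, and counts are over gene and class pairs that had enough UMIs and CPM in the 8 classes. Over all genes the rule for large differences called 0.605% of 15037 such pairs higher in cKO and 3.84% lower. Every list count below stands beside these shares. Among 29 heat shock factor targets and cochaperones, 2 of 78 pairs were higher and 5 lower in cKO. Of these 5, 4 were 1 gene, Cdc37, in classes of the same 2 libraries. Stip1, the adaptor between Hsp70 and Hsp90, was higher in neutrophil-like cells, at 180.2 CPM in cKO and 53.6 CPM in flox (1.75, 0.92 to 2.69), and in border-associated macrophage-like cells, at 142 CPM in cKO and 69.6 CPM in flox (1.02, 0.71 to 1.34). Cdc37, the Hsp90 cochaperone of kinases, was lower in 4 classes, with 31.6 CPM in cKO and 100.5 CPM in flox microglia-like cells (-1.67, -1.79 to -1.54). Dnajc7, an Hsp40 protein, was lower in oligodendrocyte-like cells at 35.4 CPM in cKO and 106 CPM in flox (-1.59, -1.97 to -1.22). The list's medians lay between -0.09 and 0.12, beside medians over all genes of -0.12 to 0.03.

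Among 20 endoplasmic reticulum chaperones and stress genes, the partners of Hspa5, 0 of 108 pairs were called in either direction. Their median was above that of all genes in 8 of 8 classes, at 0.01 to 0.30. The CCT and the heat shock factor lists lay above it in 6 of 8 classes each. The comparison was not matched for level. In monocyte or macrophage-like cells 16 of 20 list genes passed the UMI and CPM minimum, but only 1755 of all 12637 genes did. Of these 1755, 907 had an interval above equal levels and 538 below. In monocyte or macrophage-like cells 16 of 20 lay above 0, where Hspa5 was level: Calr, a lectin chaperone, held 2030.3 CPM in cKO and 1531 CPM in flox (0.41, 0.39 to 0.43), and Sdf2l1, a cochaperone of BiP, 299 CPM in cKO and 173 CPM in flox (0.79, 0.74 to 0.84). The other 4 lay below 0, Dnajb9 at -0.31, Atf4 at -0.17 and the following pair. Herpud1, a degradation factor, held 129.7 CPM in cKO and 208 CPM in flox (-0.68, -0.75 to -0.62), and Ddit3, the stress transcription factor CHOP, 4.58 CPM in cKO and 15.9 CPM in flox (-1.79, -2.09 to -1.50). Ddit3 was under the CPM minimum. Calr, Sdf2l1, Herpud1 and Ddit3 were singled out after their values were seen.

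Of the 8 subunits of the cytosolic CCT chaperonin, 0 of 43 pairs were called, and their medians ran from -0.08 to 0.36. The 8 mitochondrial chaperones had 7 pairs and the 7 other small heat shock proteins 1 pair with enough UMIs and CPM, and 0 of these were called. Hspb8, the partner of Bag3, held 194 CPM in cKO and 155 CPM in flox endothelial cell-like cells, and was named after its value was seen. Median ratios ran from -0.28 to 0.05 for the mitochondrial list and from -0.37 to 0.32 for the small heat shock list.

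The 16 immediate early genes, which tissue handling can induce, had 0 of 119 pairs higher and 8 lower in cKO. Over all genes 0.605% of 15037 pairs were higher and 3.84% lower. Ier2 alone gave 7 of the 8, in classes of the same 2 libraries. It held 64.8 CPM in cKO and 436 CPM in flox microglia-like cells (-2.75, -2.83 to -2.67). Fosb in neutrophil-like cells was the other, at 93.6 CPM in cKO and 283 CPM in flox. All 16 lay below 0 in monocyte or macrophage-like cells, with a median of -0.56. The median was -0.40 in microglia-like and -0.31 in endothelial cell-like cells, beside -0.04 and -0.12 over all genes. Hspa1a was lower in cKO in these 3 classes too. Dnajb1 was lower in macrophage (-0.25) and microglia-like cells (-0.60) but higher in endothelial cell-like cells (0.39). Hsph1 was higher in macrophage (0.22) and microglia-like cells (0.48), and its endothelial ratio was -0.30 (-0.66 to 0.05). In dendritic cell-like cells the median was -0.57, where the Hspa1a ratio was -0.79 (-1.82 to 0.19), and in border-associated macrophage-like cells it was -0.02, where the Hspa1a ratio was -0.38 (-0.71 to -0.06). In oligodendrocyte-like cells, where Hspa1a and Hspa1b were higher in cKO, the median was 0.13, and in mural cell-like cells, where Hspa1a was level, -0.01. In neutrophil-like cells the median was -0.38, where Hspa1a had 1 UMI in cKO and 7 in flox. The part of tissue handling in the Hspa1a differences was not tested.

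**Figure D4:**
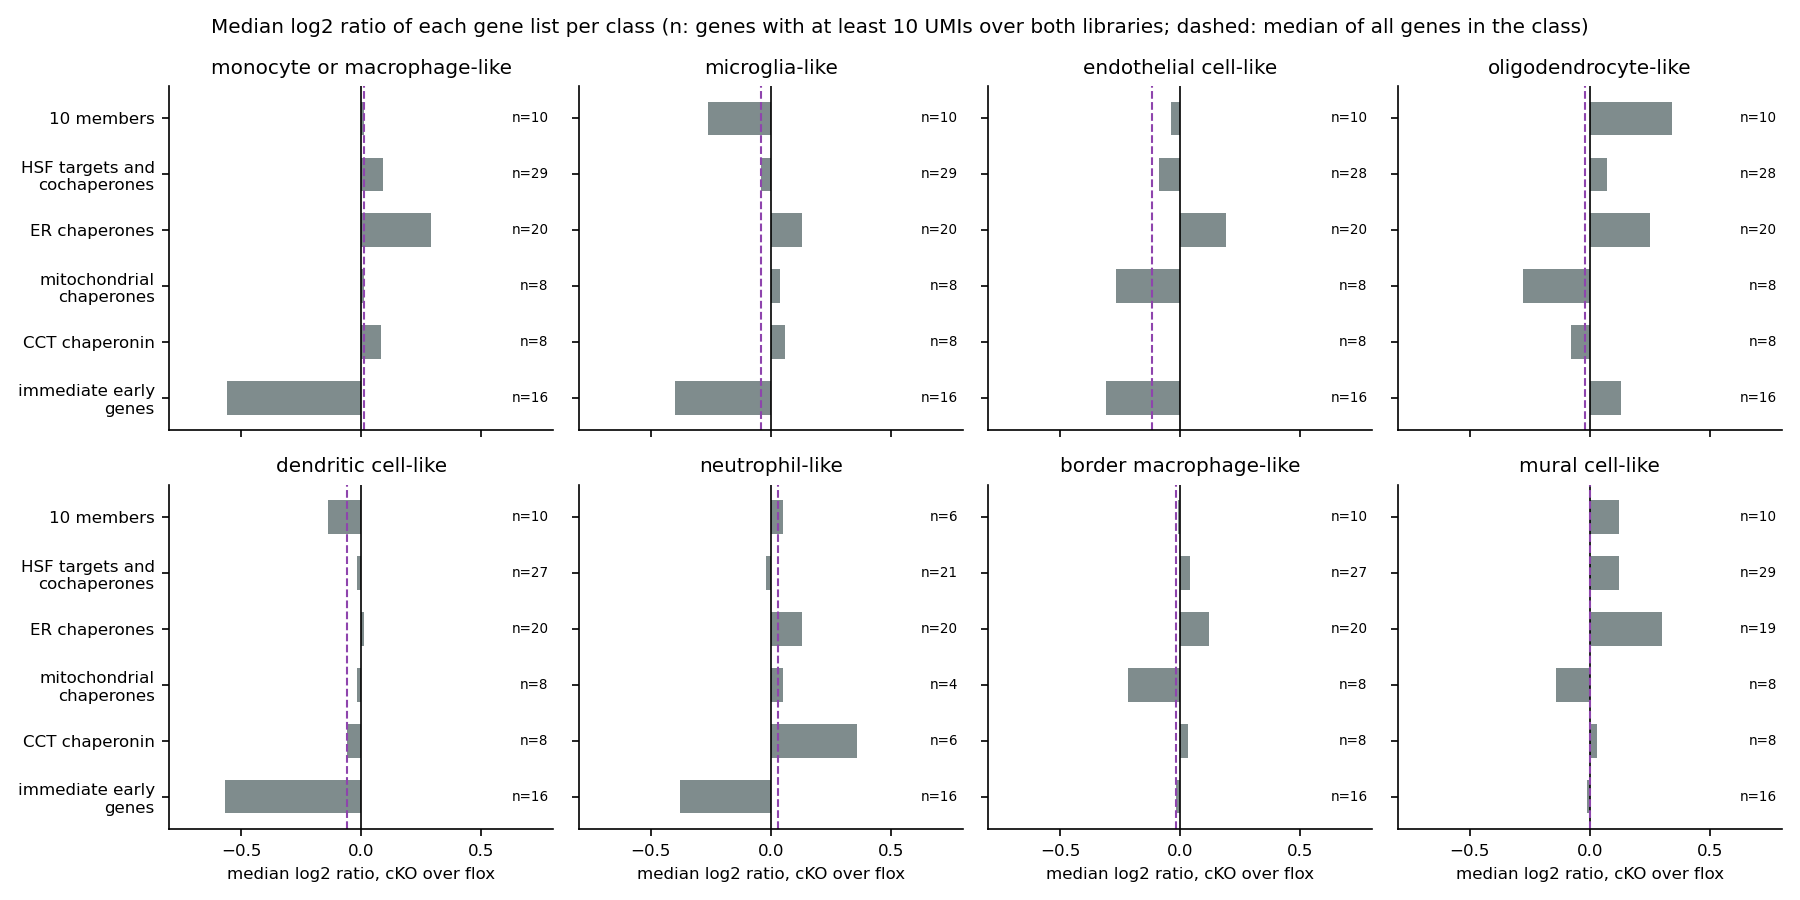
Median log2 ratio of cKO over flox for the 10 genes and 5 related lists in each of the 8 compared classes, over genes with at least 10 UMIs in both libraries together. The dashed line is the median of all such genes in the class and n the number of list genes counted. Bars of the endoplasmic reticulum chaperones lie right of the dashed line in 8 of 8 classes, and immediate early genes reach -0.56 in monocyte or macrophage-like cells.

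Correlations between members over single cells of a class were low. Over the 45 pairs of members, thinned to 3000 UMIs, Pearson correlations lay between -0.05 and 0.10 in 2620 cKO and between -0.03 and 0.10 in 2759 flox monocyte or macrophage-like cells. The highest value in these and in microglia and endothelial cell-like cells was 0.21, for Hspa1a with Hspa1b in 355 cKO endothelial cell-like cells, while the highest endothelial value in flox was 0.13. Most members were sparse at this depth, with a mean of 0.0847 Hspa1a UMIs per cKO monocyte or macrophage-like cell. For pairs with a sparse member such values are read neither as an association nor as the lack of one. Hspa5 and Hspa8 were not sparse, at means of 8.27 and 4.18 UMIs in these cells. Cells of 1 library are not replicates, so all these correlations are descriptions. Hspa5 with Hsp90b1, the Hsp90 of the endoplasmic reticulum, reached 0.32 in cKO and 0.34 in flox monocyte or macrophage-like cells, and 0.29 in cKO and 0.22 in flox microglia-like cells.

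Genes whose levels over classes were most like those of 4 members were ranked by Pearson correlation of log2(CPM + 10) over the 10 classes of 50 or more cells per library, taking the lower value of the libraries, among 6804 genes. The classes of a library share its depth and free RNA, so these are descriptions. For Hspa1a they were Pros1, Peak1, Lmna, Fez2 and Angptl4, of which Pros1 had 0.90 in cKO and 0.92 in flox. Hspa5 was most like the lysosomal genes Ctsa, Gla, Hexa and Dnase2a and the receptor gene Lair1, with 0.98 in cKO and 0.93 in flox for Ctsa. Hspb1 was most like Tm4sf1, Cavin1, Fkbp10, Il1r1 and Dysf, with 0.98 in cKO and 0.97 in flox for Tm4sf1. For Cryab the list held Slc20a2, Kazn, Sytl2, Ppfibp2 and the Hsp70 gene Hspa2, which had 0.92 in cKO and 0.90 in flox.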

How the data were processed

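Single-cell libraries from infarcted mouse brain, 1 cKO and 1 flox, were read from raw UMI counts per gene and barcode, which the authors deposited unnormalized. The submitters' processing notes name mm10 as the build and CASAVA 1.8, STARsolo and Seurat as tools; the annotation, counter settings and cell calling were not given in the sources used here. These 10 genes and all lists were chosen with earlier results of these data known.

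Barcodes were kept with at least 500 UMIs, 200 genes and at most 25% mitochondrial UMIs, and Scrublet (expected rate 6%) marked 143 cKO (2.01%) and 214 flox (2.59%) cells as doublets, which were left out. Both libraries were clustered together without integration in scanpy 1.11.5 (Python 3.11.15): counts scaled to 10000 per cell, 2000 variable genes without the members and list genes, 30 principal components, 20 neighbours, Leiden resolution 1 (leidenalg 0.10.2, igraph 0.11.9). Clusters were named "-like" from markers of 18 classes, by a mean log2 marker score of at least 2 with at least 3 markers raised. Clusters under it could be named microglia or monocyte or macrophage when the marker sum of that class was at least 2-fold the other. All monocyte or macrophage clusters, and all microglia clusters but the Siglech-led one, were named in this second way. The naming thresholds were set after the clusters were seen, and 7.79% of cKO and 11.1% of flox cells stayed unnamed, among them a haemoglobin-led cluster and a shallow one.

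UMIs were summed per class and library and scaled to CPM. Ratios of cKO over flox were given exact conditional intervals at 95%, levels exact Poisson and shares Clopper-Pearson ones, which cover counting error only. There was no replicate and no test. Coordinates and the last 500 nt of transcripts came from GENCODE vM21, which held 31107 of the 31253 identifiers, and promoters from RefSeq (GRCm38.p6). The calculations were tested on simulated data. Named genes were all 10 members, of each list the genes past the size rule (at most 4), and the 5 genes of like pattern for 4 members. Cldn5 and Hilpda served as reference levels, and leading genes only label clusters. Hsp90b1, Dnajb9 and Atf4 were also named outside this rule. Other genes outside it are said to be chosen after their values were seen. Alternatives changed the cell filters, doublets, resolution, gating, scaling (TMM, edgeR 4.0.16 in R 4.3.3), cell weight, GC correction, count minimum and thinning.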

Additional observations from a re-analysis of the deposited data

Results flagged for a closer look

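For Cryab and 5 other members the ratio of cKO over flox lay above 0 in one class and below 0 in another, each with an interval excluding equal levels. Over all genes the interval lay above equal levels in 29% and below in 22.9% of the 15037 pairs with enough UMIs and CPM. How many of all genes had both directions was not counted, so this is not read as particular to the members. The difference between the classes was not tested, and with 1 library per group it has no replicate check. Hspa1a had a log2 ratio of 0.75 (0.50 to 0.99) in oligodendrocyte-like cells, above 0 in 1 class, and was below 0 in 5 classes, the lowest being neutrophil-like cells at -3.52 (-9.01 to -0.56) from 1 UMI in cKO and 7 in flox. Hspa1b had 0.93 in oligodendrocyte-like and -0.97 in endothelial cell-like cells, which became 1.75 and -0.34 with cells gated one by one. Dnajb1 had 0.76 in mural cell-like and -0.60 in microglia-like cells. Hspa8 had 0.24 (0.09 to 0.39) in mural cell-like and -0.15 (-0.23 to -0.06) in dendritic cell-like cells. Hspa5 had 0.53 in mural cell-like and -0.17 (-0.26 to -0.08) in dendritic cell-like cells. With cells gated one by one the mural Hspa5 ratio was 0.16. Cryab also had 0.50 in oligodendrocyte-like cells and -1.26 in microglia-like cells, but the microglia ratio is not read as a difference in expression, since its level there of 2.62 CPM in cKO and 6.26 CPM in flox lay far under the 2173 CPM in cKO and 1539 CPM in flox oligodendrocyte-like cells.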

How the results depend on the processing

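The count of large differences among members was 0 higher and 0 lower under most settings; cells gated one by one gave 3 higher (Hspa1a, Hspa1b and Hsph1 in oligodendrocyte-like cells at 2.15, 1.75 and 1.06), equal weight per cell gave 1 higher, and dropping the UMI and CPM minimum gave 2 lower. Median ratios of the members moved in the following cases, and the cause was not tested. Gating gave 0.61 in oligodendrocyte-like, -0.57 in dendritic cell-like, -0.14 in border-associated macrophage-like and 0.23 in mural cell-like cells, against 0.34, -0.14, -0.01 and 0.12. Equal weight per cell gave -0.11 in microglia-like (against -0.26), -0.28 in border-associated macrophage-like and 0.29 in mural cell-like cells. GC correction gave 0.01 in microglia-like and 0.10 in endothelial cell-like cells (against -0.04), where TMM also gave 0.10 and resolution 0.5 gave -0.16. A 10% mitochondrial limit gave 0.39 in mural cell-like cells, and keeping doublets gave -0.14 in neutrophil-like cells (against 0.05). Of the alternatives chosen after seeing the data, leaving out the highest cell of each gene gave -0.11 in border-associated macrophage-like cells and turned Hspb1 in oligodendrocyte-like cells from -0.86 to 0.03, where 1 flox cell held 40 of 73 UMIs. Keeping the haemoglobin-led cluster with the macrophages turned Hspa1b there from -0.31 to 0.33 and Cryab from -0.84 to 0.91. The ratios of Dnajb1 (-0.68 to -0.56) and Hspa1a (-0.61 to -0.51) in microglia-like cells and of Hspa5 in oligodendrocyte-like cells (0.38 to 0.45) kept their direction in every alternative run. No paired analysis was possible because each group has 1 library. Neutrophil-like cells, at a median of 1299 UMIs in cKO and 1067 in flox, were too shallow for the rarer members.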

Other observations

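The unnamed cluster led by haemoglobin genes, with 408 cKO and 753 flox cells, held 70.3 CPM of Cryab in cKO and 5.79 CPM in flox, 33.4 CPM of Hspa1b in cKO and 5.79 CPM in flox, and 74.8 CPM of Hspa1a in cKO and 39.7 CPM in flox. A single cKO cell per gene held 195 of the 204 Cryab UMIs (95.6%), 55 of the 97 Hspa1b UMIs (56.7%), 72 of the 217 Hspa1a UMIs (33.2%) and 31 of the 47 Hspb1 UMIs (66%). In flox the highest cell held 1 of 29 Cryab UMIs. Hspa5 and Hspa8, spread over nearly all cells of the cluster, stood at 2742 CPM in cKO and 2626 CPM in flox, and at 1333 CPM in cKO and 1239 CPM in flox.

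Hsp90ab1, the constitutive partner of Hsp90aa1, was higher in cKO in all 8 compared classes, without passing the size rule in any. It held 980.4 CPM in cKO and 723 CPM in flox monocyte or macrophage-like cells (log2 ratio 0.44), 1956 CPM in cKO and 1471 CPM in flox endothelial cell-like cells (0.41), and 325 CPM in cKO and 283 CPM in flox neutrophil-like cells (0.20). Hsp90aa1 itself had a ratio of 0.05 in microglia-like cells, where Hsp90ab1 stood at 1149 CPM in cKO and 910.5 CPM in flox (0.34). The neutrophil value of Hsp90ab1 came from 139 UMIs in cKO and 74 UMIs in flox. Actb, another abundant gene, was also higher in cKO in all 8 classes, so this direction is not particular to Hsp90ab1. Actb held 18617 CPM in cKO and 14552 CPM in flox monocyte or macrophage-like cells. In endothelial cell-like cells it held 10052 CPM in cKO and 7159.7 CPM in flox. Hsp90ab1 and the comparison with Actb were singled out after their values were seen.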
